A study of Mus musculus with 2 samples.

Results

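The genes described here encode the machinery that copies DNA once in each cell cycle. All 43 symbols on the list of replication genes were found in the deposited expression table, which holds 18032 genes, and all 43 were abundant enough to be compared. Polyadenylated RNA was sequenced from 2 mouse cell populations, with 1 library each. The cEpiSC library came from epiblast stem cells made in culture: mESC in 2iLIF were plated on fibronectin in 2iLIF, moved after 24 h into N2B27 medium with activin A at 20 ng/ml and FGF2 at 12 ng/ml, and kept there for 2 days. The mESC library came from ES-E14TG2a embryonic stem cells held in 2iLIF, which is serum-free N2B27 with LIF at 100 units/ml, the ERK pathway inhibitor PD0325901 at 1 µM and the GSK3 inhibitor CHIR99021 at 3 µM. Both populations are labelled wild type, and the 2iLIF cultures held no feeder cells. The cEpiSC label names mESC in 2iLIF as the source but not their line, and the conversion lasted days, so these are not long-established epiblast stem cells. Pluripotent state, medium and library changed together and cannot be told apart.

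Replication starts with licensing in G1. The origin recognition complex, ORC, together with Cdc6 and Cdt1 loads the MCM2-7 ring onto DNA. In S phase Cdc45 and the GINS complex join the ring to form the active CMG helicase. DNA polymerase alpha-primase then lays down primers, polymerases epsilon and delta extend the leading and lagging strands, the clamp loader RFC places the sliding clamp PCNA, and RPA covers single-stranded DNA. Pluripotent cells of the mouse divide quickly and spend much of their cycle in S phase, and many of these genes are known targets of E2F transcription factors.

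The libraries held 19956733 estimated counts for cEpiSC and 19843719 for mESC. Among state markers, all 6 primed genes differed by 2-fold or more and were higher in cEpiSC, with a summed level of 465 TPM in cEpiSC and 60.4 TPM in mESC. Of 6 naive genes 4 were at least 2-fold lower, with 558 TPM in cEpiSC and 1399 TPM in mESC. Markers of fibroblasts summed to 5.72 TPM in cEpiSC and 2.13 TPM in mESC, with Lum at 0 counts in cEpiSC and Col3a1 and Dcn at 0 in mESC. Thy1 was the highest of them, at 4.86 TPM in cEpiSC and 1.19 TPM in mESC. Col1a1 stood at 0.55 TPM in cEpiSC and 0.67 TPM in mESC. Mesoderm markers gave 8.06 TPM in cEpiSC and 10.3 TPM in mESC, with Mesp1 at 0 in mESC. Primitive endoderm markers gave 7.61 TPM in cEpiSC and 8.91 TPM in mESC, with Foxa2 at 0 in cEpiSC. Of the 4 abundant enough to be compared 3 were higher in cEpiSC. The other, Gata4, was lower, at 2.25 TPM in cEpiSC and 4.75 TPM in mESC. Neural markers gave 34.4 TPM in cEpiSC and 86.0 TPM in mESC, where 2 of the 4 were higher in cEpiSC (Sox1 and Pax6) and 2 lower (Tubb3 and Nes). The part of these markers in the values of the replication genes was not tested.

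The replication genes differed little in level between the libraries. None of the 43 was 2-fold higher or 2-fold lower in cEpiSC. A gene was compared where 1 of the libraries or both gave it 1 CPM (counts scaled to library size) or more. Of the 13243 such genes 13.6% passed 2-fold on the higher side and 9.25% on the lower side. At 1.5-fold, 2 of the 43 were higher (Gins2 and Rfc5) and 1 was lower (Mcm3), where the shares over all genes were 20.7% and 18.9%. Rfc5 no longer passed 1.5-fold when ratios were centred on transcript length, at 0.57, which left 1 gene higher. Among the 7920 genes in the same range of abundance (20.8 to 906 CPM in the higher library) 5.21% were 2-fold higher, 7.79% 2-fold lower, 10.5% 1.5-fold higher and 18.7% 1.5-fold lower. Thus 40 of 43 replication genes lay within 1.5-fold, where 60.4% of all genes compared and 70.8% of genes in that range did. The median size of the log2 ratio, with its sign dropped, was 0.21 for the replication genes, 0.44 for all genes and 0.35 for genes in the range. With 1 library per state there is no replicate check and no p-value, so these counts describe the libraries and not the states.

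**Figure D1:**
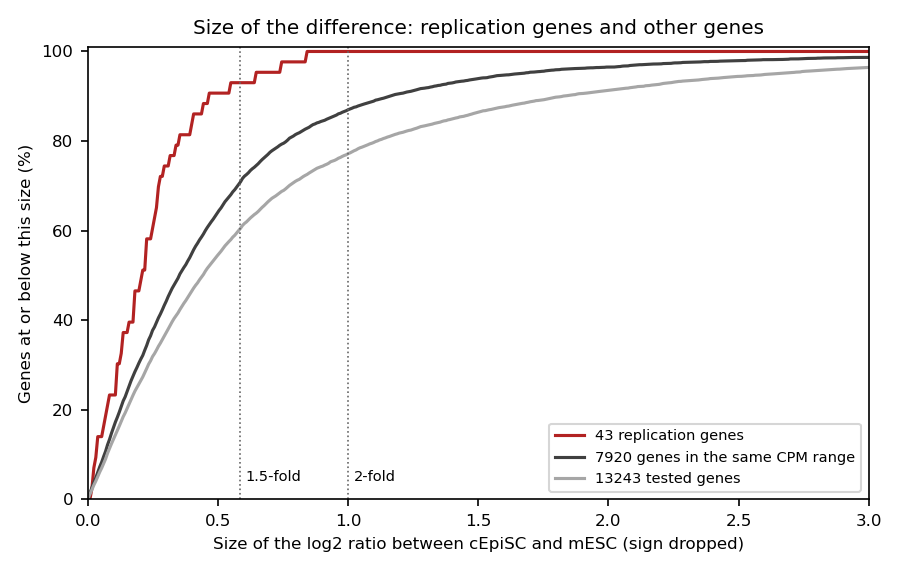
Share of genes (vertical axis, percent) whose log2 ratio between cEpiSC and mESC has at most the size on the horizontal axis, sign dropped, for the 43 replication genes, the 7920 genes of the same CPM range and all 13243 genes compared. The curve of the replication genes reaches 100% before the 2-fold line, and the other curves do not.

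Direction was mixed. The log2 ratio of cEpiSC over mESC, computed from counts scaled with TMM, was above 0 for 26 genes and below 0 for 17. Of all genes compared 48.8% lay above 0, as did 41.5% of genes in the same range. The median was 0.070 for the replication genes, -0.018 for all genes compared and -0.10 for genes in the same range. The 95% counting interval of the ratio, given with each ratio, lay wholly above 0 for 20 of the 43, where 36.6% of all genes compared and 32.8% of those in the range did. It lay wholly below 0 for 13, where 39.1% of all genes compared and 48.7% of those in the range did, and included 0 for 10, namely Orc5, Cdc6, Gmnn, Mcm6, Gins1, Gins3, Pola2, Pold1, Pole2 and Rfc3. These intervals cover counting error only and rest on TMM scaling, and the spread between cultures is not known. In bulk RNA, fewer cells in S phase and less RNA per cell cannot be told apart.

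The genes were well expressed in both libraries. Levels are given in TPM, which is scaled per kilobase and so can be compared between genes. The 43 genes summed to 7395 TPM in cEpiSC and 7332 TPM in mESC, or 0.739% of all TPM in cEpiSC and 0.733% in mESC. Their median was 120.5 TPM in cEpiSC, where the median gene compared had 16.2 TPM, and 114 TPM in mESC, where it had 17.95 TPM. In both libraries 42 of the 43 lay above the median gene. The exception was Gins3, which encodes a GINS subunit, at 15.2 TPM in cEpiSC and 16.1 TPM in mESC. At the other end stood Pcna at 756 TPM in cEpiSC and 724 TPM in mESC.

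**Figure D2:**
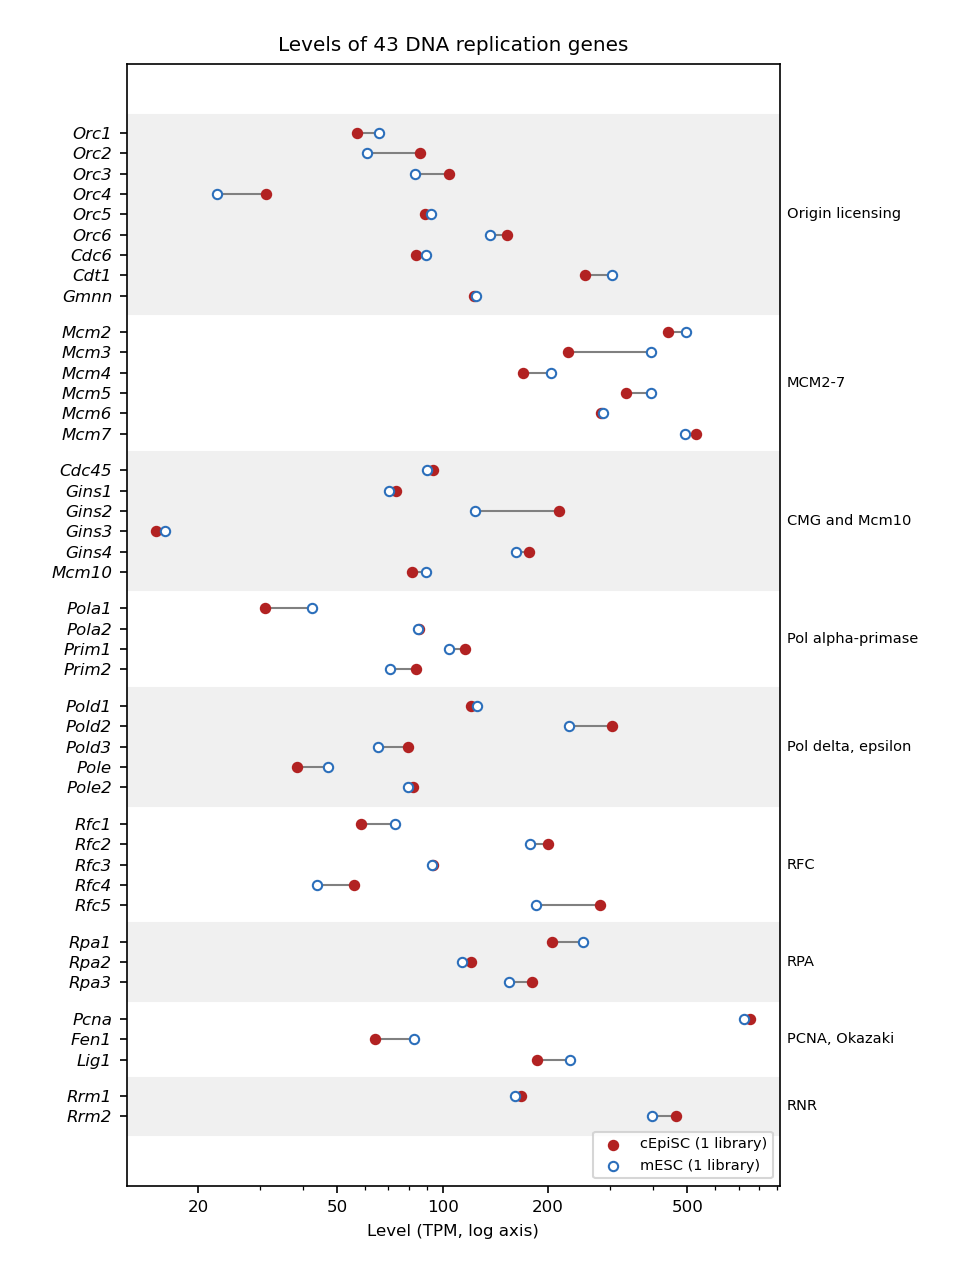
Level of each replication gene (horizontal axis, TPM, log scale) in the cEpiSC library (filled) and the mESC library (open), grouped by role. The order within most groups is alike in both libraries, with Pcna at the high end and Gins3 at the low end.

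What the genes share in sequence was looked at in their promoters, because many are known E2F targets. RefSeq windows of GRCm38.p6, 250 bases before to 50 after a transcript start, were matched to 35 of the 43 genes. Gmnn, Mcm4, Gins1, Gins2, Gins4, Prim2, Pole and Rfc2 had no entry. E2F motifs were searched on both strands as TTTCCCGC, TTTGGCGC, TTTCGCGC or TTTGCCGC, and the CCAAT box, bound by NF-Y, as CCAAT. An E2F motif was found for 15 of the 35 genes (42.9%). By comparison, 2.27% of all 32851 windows hold one, as do 4.79% of the 10578 compared genes with a window. The CCAAT box was found for 23 of 35 (65.7%), against 37.4% of all windows and 43.8% of compared genes. Both motifs were found for 8 genes, and in 1 of them, Mcm7, an E2F match overlapped a CCAAT box. A match is a description of letters and not evidence of binding.

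The 8 licensing and MCM2-7 genes with an E2F motif are shown by the stretch around the match nearest to the start, read 5′ to 3′ on the strand of the gene, with the E2F letters in capitals.
Orc1 (chr4:108579417-108579444, plus strand): tcggttagtgGCGCGAAAagttttctcc
Orc3 (chr4:34614966-34614993, minus strand): catgcctcccTTTCCCGCacgccccgcc
Cdc6 (chr11:98908003-98908030, plus strand): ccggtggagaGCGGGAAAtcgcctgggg
Cdt1 (chr8:122568037-122568064, plus strand): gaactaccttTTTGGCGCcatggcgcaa
Mcm3 (chr1:20820276-20820303, minus strand): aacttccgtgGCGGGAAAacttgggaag
Mcm5 (chr8:75109350-75109377, plus strand): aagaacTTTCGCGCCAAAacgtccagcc
Mcm6 (chr1:128359735-128359762, minus strand): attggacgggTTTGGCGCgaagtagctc
Mcm7 (chr5:138171850-138171877, minus strand): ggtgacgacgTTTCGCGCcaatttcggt
In Orc1, Cdc6 and Mcm3 the match lies on the opposite strand, so it reads GCGCGAAA or GCGGGAAA here. In Mcm5 matches on both strands overlap within TTTCGCGCCAAA. The matches of Cdt1, Mcm3 and Mcm7 lie downstream of the start.

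Longer stretches, the 150 bases just before the start, show how the motifs sit together, with E2F and CCAAT motifs in capitals.
Mcm6 (chr1:128359706-128359855, minus strand): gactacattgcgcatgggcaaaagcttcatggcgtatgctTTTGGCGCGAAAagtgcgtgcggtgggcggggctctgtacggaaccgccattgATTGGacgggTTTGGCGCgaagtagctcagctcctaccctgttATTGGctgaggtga
Orc1 (chr4:108579304-108579453, plus strand): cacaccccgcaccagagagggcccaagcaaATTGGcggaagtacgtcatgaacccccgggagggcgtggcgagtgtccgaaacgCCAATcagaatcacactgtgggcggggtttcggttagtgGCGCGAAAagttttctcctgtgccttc
Mcm3 (chr1:20820313-20820462, minus strand): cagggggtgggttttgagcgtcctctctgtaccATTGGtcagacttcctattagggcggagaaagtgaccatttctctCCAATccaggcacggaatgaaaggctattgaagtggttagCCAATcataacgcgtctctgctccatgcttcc
Rfc5 (chr5:117389024-117389173, minus strand): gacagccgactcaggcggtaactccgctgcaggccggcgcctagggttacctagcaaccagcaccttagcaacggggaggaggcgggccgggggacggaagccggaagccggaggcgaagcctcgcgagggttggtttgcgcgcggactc
Mcm6 has 3 E2F matches, of which an overlapping pair forms TTTGGCGCGAAA, and 2 CCAAT boxes, both on the opposite strand and read as ATTGG. Orc1 has 1 E2F match and 2 CCAAT boxes. Mcm3, the gene with the lowest ratio, has 3 CCAAT boxes here and its E2F letters after the start. Rfc5, next to Gins2 in ratio, has neither motif in this stretch. The 15 genes with an E2F motif had a median log2 ratio of -0.021, from -0.74 to 0.35, and the 20 with a window but no motif had 0.13, from -0.31 to 0.65, so the ranges overlapped widely.

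ORC is the complex that marks origins, and 4 of its 6 genes lay above 0. Orc2, an ORC core subunit (Entrez 18393, chr1:58462771-58505113), had 3444 counts in cEpiSC and 2229 in mESC, or 86.0 TPM in cEpiSC and 61.0 TPM in mESC, a log2 ratio of 0.55 (0.47 to 0.62). Orc4, also a core subunit, stood at 31.3 TPM in cEpiSC and 22.7 TPM in mESC, a ratio of 0.44 (0.31 to 0.57). Its estimated counts were not whole, but added to those of Acvr2a they were, in both libraries, so these genes shared reads. Exons of Orc4 share 446 bases with Acvr2a on the other strand, which had 208 counts in cEpiSC and 199.5 in mESC. Orc3 stood at 104 TPM in cEpiSC and 83.4 TPM in mESC (log2 ratio 0.35, 0.27 to 0.43). Orc6, the smallest subunit, stood at 153 TPM in cEpiSC and 136 TPM in mESC (log2 ratio 0.22, 0.14 to 0.30). For these 4 ORC genes the interval lay wholly above 0. Orc1, the subunit whose protein is known to cycle, was slightly lower at 56.8 TPM in cEpiSC and 65.9 TPM in mESC, a ratio of -0.17 (-0.26 to -0.085). Orc5 stood at 88.7 TPM in cEpiSC and 92.8 TPM in mESC (log2 ratio -0.015, -0.11 to 0.075), a difference within counting error. The 6 ORC genes summed to 519.9 TPM in cEpiSC and 462 TPM in mESC. Their levels were uneven: Orc6, the highest, exceeded Orc4, the lowest, by 4.89 times in cEpiSC and 6.01 times in mESC.

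The loaders and their inhibitor differed less. Cdt1, which brings MCM2-7 to ORC and is destroyed in S phase, was the most abundant licensing transcript at 256 TPM in cEpiSC, against 305 TPM in mESC, a ratio of -0.21 (-0.26 to -0.16). Cdc6, the ATPase that works beside it, stood at 83.7 TPM in cEpiSC and 89.7 TPM in mESC (log2 ratio -0.021, -0.11 to 0.064). Gmnn encodes geminin, the inhibitor of Cdt1, and stood at 123 TPM in cEpiSC and 124 TPM in mESC (log2 ratio 0.032, -0.083 to 0.15). For Cdc6 and Gmnn no difference was detectable at this depth with TMM scaling. Cdt1 thus stood above Gmnn in TPM in both libraries.

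Of the genes for the MCM2-7 helicase, Mcm3 stood apart from the rest. Mcm3 (Entrez 17215, chr1:20802966-20820312) had 7498 counts in cEpiSC and 11829 in mESC, or 228 TPM in cEpiSC, against 392 TPM in mESC, a log2 ratio of -0.74 (-0.78 to -0.70), which is 1.67-fold lower in cEpiSC. It was the lowest ratio among the 43. The other subunits, which form the ring with Mcm3 in equal numbers, lay between -0.22 and 0.15. Mcm2 stood at 440.0 TPM in cEpiSC and 496 TPM in mESC (log2 ratio -0.12, -0.15 to -0.094). Mcm4 stood at 169.6 TPM in cEpiSC and 204 TPM in mESC (log2 ratio -0.22, -0.27 to -0.17), the lowest level of the ring in both libraries. Mcm5 stood at 334 TPM in cEpiSC and 393 TPM in mESC (log2 ratio -0.17, -0.21 to -0.14). These 3 were slightly lower in cEpiSC. Mcm6 stood at 282 TPM in cEpiSC and 287 TPM in mESC, and its ratio from counts was 0.026 (-0.016 to 0.068), so no difference was detectable with TMM scaling. With library totals the ratio of Mcm6 was 0.0985, outside that interval. Mcm7 was the subunit on the other side, at 529 TPM in cEpiSC, against 491 TPM in mESC, a ratio of 0.15 (0.12 to 0.19). The transcripts of the ring summed to 1982 TPM in cEpiSC and 2264 TPM in mESC, and Mcm3 made up 11.5% of that sum in cEpiSC, against 17.3% in mESC. Mcm7 made up 26.7% in cEpiSC, against 21.7% in mESC. Highest over lowest subunit was 3.12 in cEpiSC (Mcm7 over Mcm4) and 2.43 in mESC (Mcm2 over Mcm4).

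GINS held the highest ratio of the list. Gins2 (Entrez 272551, chr8:120581266-120589075), which encodes the Psf2 subunit, had 2397 counts in cEpiSC and 1264 in mESC, or 215 TPM in cEpiSC, against 124 TPM in mESC, a log2 ratio of 0.84 (0.74 to 0.94) and 1.79-fold higher in cEpiSC. The 4 GINS proteins act as 1 complex, but the other 3 transcripts lay between -0.031 and 0.17. Gins4 (Sld5) stood at 177 TPM in cEpiSC and 162 TPM in mESC (log2 ratio 0.17, 0.092 to 0.26). Gins1 (Psf1) stood at 73.6 TPM in cEpiSC and 70.4 TPM in mESC (log2 ratio 0.11, -0.031 to 0.26), and Gins3 (Psf3) had 416 counts in cEpiSC and 402 in mESC (log2 ratio -0.031, -0.23 to 0.17). For Gins1 and Gins3 the interval included 0. Gins2 made up 44.8% of GINS TPM in cEpiSC, against 33.3% in mESC, while Gins3 made up 3.16% in cEpiSC and 4.31% in mESC. Exons of Gins2 share 2758 bases with those of Gse1 on the other strand in GENCODE vM21. The sources used here do not state whether counting used strand, but Orc4 and Rfc4 shared reads with genes on the other strand. Gse1 itself had 1837 counts in cEpiSC and 1828 in mESC. The estimated counts of Gins2 and Gse1 were whole in both libraries, so no divided reads were seen for this pair. Cdc45, the other partner of the ring in the CMG helicase, stood at 93.8 TPM in cEpiSC and 90.3 TPM in mESC (log2 ratio 0.13, 0.040 to 0.22). Mcm10, which helps to activate the helicase and is no part of the ring, stood at 81.9 TPM in cEpiSC and 89.4 TPM in mESC (log2 ratio -0.082, -0.15 to -0.011).

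**Figure D3:**
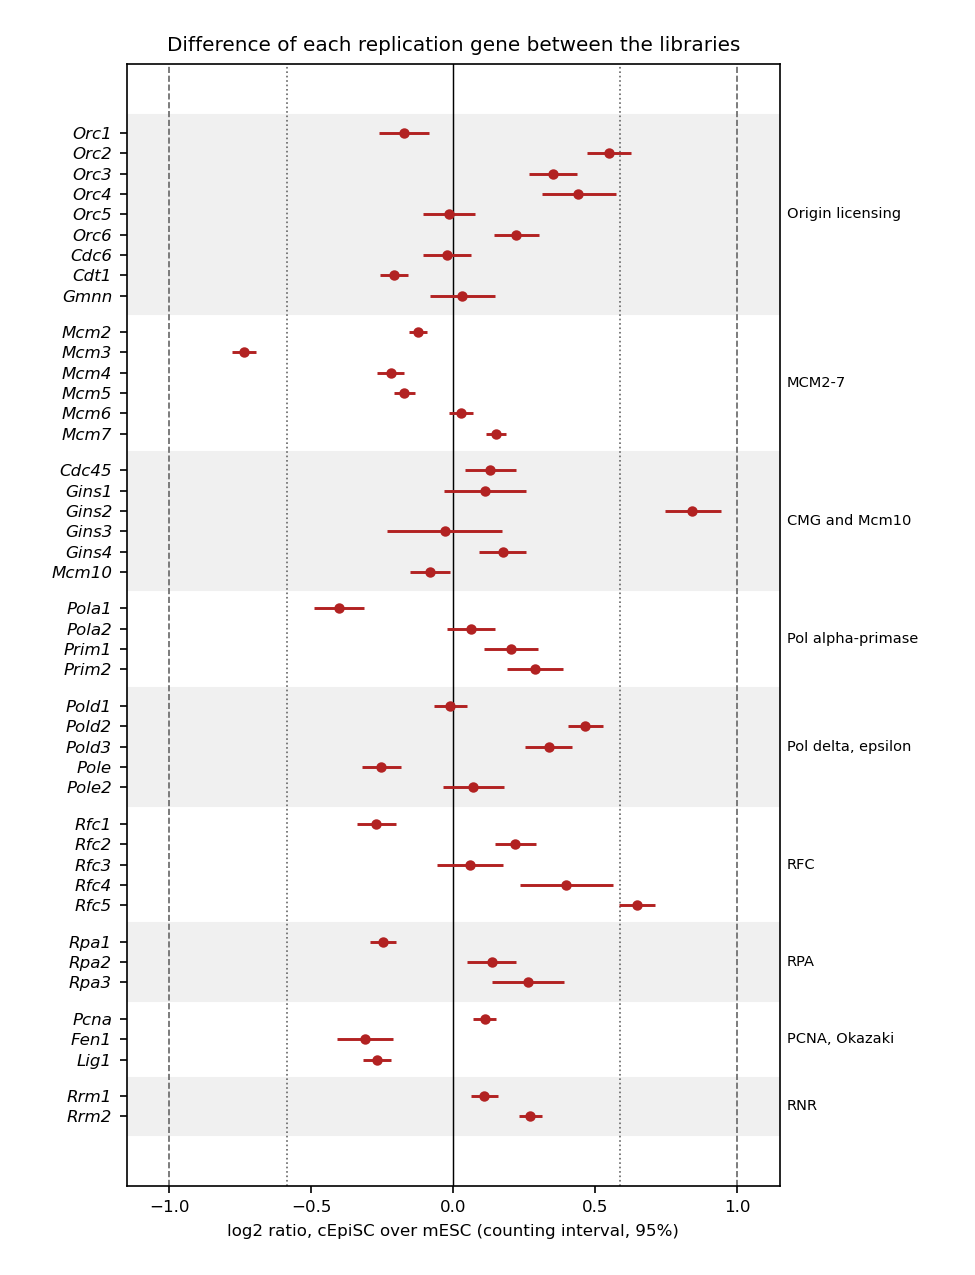
Log2 ratio of cEpiSC over mESC for each replication gene, with its 95% counting interval (bars), grouped by role. Dotted lines mark 1.5-fold and dashed lines 2-fold. Gins2 and Rfc5 lie beyond 1.5-fold above 0 and Mcm3 beyond it below 0, and no gene reaches a dashed line.

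Among the listed genes, those of the 3 catalytic polymerase subunits lay below 0 and those of their partners above it. This order is not firm: Pold1 turned positive with library totals or FPKM, and Pold1 and Pole turned positive and Pole2 negative when ratios were centred on transcript length. Pola1, the catalytic subunit of polymerase alpha (Entrez 18968, chrX:93304766-93632387), stood at 31.1 TPM in cEpiSC, against 42.2 TPM in mESC, a ratio of -0.40 (-0.49 to -0.32), the second lowest of the list. Its partner Pola2 stood at 85.7 TPM in cEpiSC and 84.7 TPM in mESC (log2 ratio 0.063, -0.022 to 0.15). The primase genes were both higher. Prim1, the catalytic primase subunit, stood at 116 TPM in cEpiSC and 104 TPM in mESC (log2 ratio 0.20, 0.11 to 0.30) and Prim2, the regulatory subunit, at 83.6 TPM in cEpiSC and 70.8 TPM in mESC (log2 ratio 0.29, 0.19 to 0.39). Pole, the catalytic subunit of the leading-strand polymerase, stood at 38.3 TPM in cEpiSC and 47.2 TPM in mESC (log2 ratio -0.25, -0.32 to -0.18), while its partner Pole2 stood at 82.2 TPM in cEpiSC and 79.5 TPM in mESC (log2 ratio 0.070, -0.036 to 0.18). Of polymerase delta, which makes the lagging strand, the catalytic gene Pold1 stood at 120.5 TPM in cEpiSC and 125 TPM in mESC (log2 ratio -0.011, -0.070 to 0.048). Its accessory genes were higher. Pold2 stood at 305 TPM in cEpiSC, against 229 TPM in mESC (log2 ratio 0.46, 0.40 to 0.53) and Pold3 at 79.7 TPM in cEpiSC, against 65.3 TPM in mESC (log2 ratio 0.34, 0.25 to 0.42). Pold2 held 48.8% of the TPM of the listed polymerase delta and epsilon genes in cEpiSC, against 41.9% in mESC. Of their subunit genes outside the list, Pole3 lay below 0 (log2 ratio -0.16, -0.41 to 0.087). Pole4 (log2 ratio 0.11, 0.022 to 0.20) and Pold4 (log2 ratio 0.30, 0.0005 to 0.60) lay above it.

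The clamp loader was split too, but by size of subunit and not by catalytic role. RFC is built of 1 large and 4 small subunits. The gene of the large subunit, Rfc1, was lower at 58.5 TPM in cEpiSC, against 73.0 TPM in mESC, a ratio of -0.27 (-0.34 to -0.20). The small-subunit gene Rfc5 (Entrez 72151, chr5:117379145-117389023) was 1.57-fold higher before centring on length, with 5419 counts in cEpiSC and 3273 in mESC, or 281 TPM in cEpiSC, against 185 TPM in mESC, a ratio of 0.65 (0.58 to 0.71). Rfc4 had 739 counts in cEpiSC and 530 in mESC (log2 ratio 0.40, 0.24 to 0.56). Its estimated counts were not whole, but added to those of Eif4a2 they were, in both libraries, so these genes shared reads. Exons of Rfc4 share 194 bases with Eif4a2 on the other strand, which had 9916 counts in cEpiSC and 8299 in mESC. The part of these shared reads in the ratio of Rfc4 was not tested. Rfc2 stood at 200.1 TPM in cEpiSC and 178 TPM in mESC (log2 ratio 0.22, 0.14 to 0.29). Rfc3 stood at 93.7 TPM in cEpiSC and 93.0 TPM in mESC (log2 ratio 0.058, -0.059 to 0.18), within counting error. Centred on length, the ratio of Rfc3 turned to -0.07. Rfc5 was thus the highest and Rfc4 the lowest transcript of the complex in both libraries. Exons of Rfc5 share 499 bases with Wsb2 on the other strand, which had 1732 counts in cEpiSC and 1632 in mESC, and those of Orc2 share 1150 bases with Nif3l1, with 934 counts in cEpiSC and 842 in mESC. The estimated counts of Rfc5 and Orc2 were whole in both libraries. In all, 11 of the 43 share exonic bases with a coding gene on the other strand, and the like share over all genes was not counted. Counts that were not whole were seen for 2 of the 43 (Orc4 and Rfc4), where 11.9% of all genes in cEpiSC and 11.3% in mESC had them.

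RPA, the trimer that coats single-stranded DNA, was also split by size of subunit. Rpa1, the large DNA-binding subunit, was lower at 205 TPM in cEpiSC, against 251 TPM in mESC (log2 ratio -0.25, -0.29 to -0.20). Rpa2, the middle subunit, was slightly higher at 121 TPM in cEpiSC, against 114 TPM in mESC (log2 ratio 0.13, 0.049 to 0.22), and so was the small subunit Rpa3 at 180.1 TPM in cEpiSC, against 155 TPM in mESC (log2 ratio 0.26, 0.14 to 0.39). The 3 genes together gave 506 TPM in cEpiSC and 520.0 TPM in mESC. Highest over lowest subunit was 1.70 in cEpiSC and 2.21 in mESC, the narrowest spread among the groups.

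Among the factors that finish the lagging strand, Pcna, the sliding clamp, had 10401 counts in cEpiSC and 9112 in mESC, a ratio of 0.11 (0.069 to 0.15), which turned slightly negative when centred on length. Fen1, the nuclease that trims Okazaki fragment flaps, was lower at 64.0 TPM in cEpiSC, against 82.7 TPM in mESC, a ratio of -0.31 (-0.41 to -0.21). Lig1, the ligase that seals the fragments, was lower at 186 TPM in cEpiSC, against 232 TPM in mESC, a ratio of -0.27 (-0.32 to -0.22). Ribonucleotide reductase, which makes deoxyribonucleotides, was slightly higher in both subunits. Rrm1, the large subunit, stood at 168 TPM in cEpiSC and 161 TPM in mESC (log2 ratio 0.11, 0.062 to 0.16). Rrm2, the subunit that limits activity and cycles with S phase, stood at 463 TPM in cEpiSC, against 397 TPM in mESC (log2 ratio 0.27, 0.23 to 0.31).

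Ratios ran with transcript length. Effective length, as implied by the deposited counts and FPKM, had a Spearman correlation of -0.52 and a Pearson correlation of -0.49 (on log2 length) with the log2 ratio across the 43 genes. Across the 7920 genes of the same abundance they were -0.26 and -0.18, and across all 13243 genes -0.16 and -0.094. Genes are not independent replicates, and all points share the same pair of libraries, so these are descriptions. Of the 21 members shorter than the median of 2189.9 bases, 18 had a ratio above 0, with a median of 0.17. Of the 21 longer ones 7 did, with a median of -0.082. The same direction was seen over all genes compared, cut by length into 10 deciles. Their median ratio was 0.17 in the shortest decile and -0.32 in the longest. The share above 0 among all genes of like length was not counted. After each ratio was centred on the median of its length decile, Pole moved to 0.046 and Pcna to -0.018, which turned their sign, as it did for Gmnn, Gins1, Pold1, Pole2 and Rfc3, whose intervals include 0. Gins2 moved to 0.66, Rfc5 to 0.57 and Mcm3 to -0.73. The part of length in the split between large and small subunits was not tested otherwise. The libraries implied nearly the same length for each gene: 42 of 43 agreed within 5%, where 6.60% of 10848 genes differed by more, and the exception was Orc4, at -0.073 on the log2 scale.

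**Figure D4:**
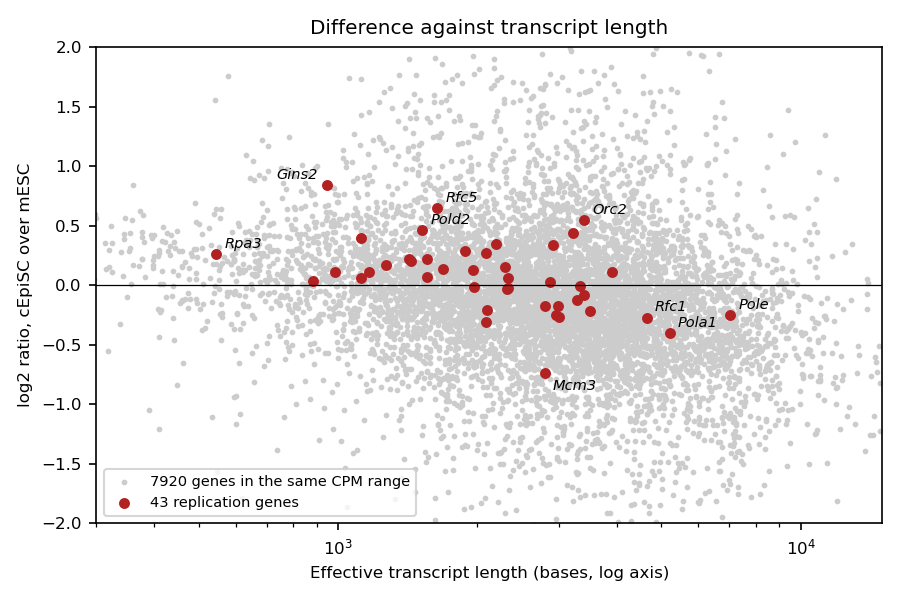
Log2 ratio of cEpiSC over mESC against effective transcript length (bases, log axis) for the 43 replication genes and, behind them, the 7920 genes in the same CPM range, of which 304 lie beyond the axes. Short members such as Gins2 and Rpa3 lie above 0, and long ones such as Pole, Pola1 and Rfc1 below it.

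Other genes of the same process were set beside these, from lists that also hold mitotic and E2F genes. Origin firing, the step between licensing and synthesis, held the only difference beyond 2-fold among the 8 lists, with 1 gene of 7 lower where 9.25% of all genes compared were. Ticrr, which encodes treslin, a factor that brings Cdc45 to the loaded helicase, had 1237 counts in cEpiSC and 3523 in mESC, or 14.8 TPM in cEpiSC, against 45.9 TPM in mESC, a log2 ratio of -1.59 (-1.69 to -1.50) and 3.01-fold lower in cEpiSC. All 7 genes of that list had ratios below 0 (median -0.18), where 48.8% of all genes compared and 41.5% of those in the abundance range of the 43 replication genes had ratios above 0. These ratios were not centred on transcript length, and the part of length in their direction was not tested. For 3 of the 7 the interval included 0: Cdc7 (log2 ratio -0.021, -0.13 to 0.088) and Dbf4 (log2 ratio -0.020, -0.091 to 0.050), the kinase that fires origins and its activator, and Donson (log2 ratio -0.095, -0.23 to 0.041).

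Among 20 further fork proteins none was 2-fold apart, 10 lay above 0 and 10 below, and the median was -0.026. The widest were Top2a, the topoisomerase that untangles sister chromatids, at 340.3 TPM in cEpiSC, against 242 TPM in mESC (log2 ratio 0.54, 0.51 to 0.57), and Rnaseh2b, a subunit of the enzyme that removes ribonucleotides, at 71.2 TPM in cEpiSC, against 107 TPM in mESC (log2 ratio -0.53, -0.65 to -0.42). Of 9 genes of nucleotide supply 3 lay above 0 and 6 below, at a median of -0.10. Dctpp1, a nucleotide pyrophosphatase, stood at 573 TPM in cEpiSC, against 390.4 TPM in mESC (log2 ratio 0.60, 0.52 to 0.68), and Dck, a kinase of nucleoside salvage, at 37.3 TPM in cEpiSC, against 47.7 TPM in mESC (log2 ratio -0.31, -0.42 to -0.20). Of 5 genes that control turnover of licensing factors none was 2-fold apart (median 0.11). The ubiquitin ligase scaffold gene Cul4a was the widest at 77.6 TPM in cEpiSC, against 46.9 TPM in mESC (log2 ratio 0.77, 0.69 to 0.86), followed by Skp2 (log2 ratio 0.31, 0.21 to 0.42).

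The E2F family and its partners were mixed as well. Of 10 genes 5 lay above 0 and 5 below, none beyond 2-fold, at a median of 0.096. Tfdp2, a dimer partner of E2F, stood at 24.7 TPM in cEpiSC, against 14.9 TPM in mESC (log2 ratio 0.77, 0.66 to 0.87), and E2f3, an activator, at 10.3 TPM in cEpiSC, against 15.4 TPM in mESC (log2 ratio -0.54, -0.69 to -0.38). Of 15 mitotic genes 10 lay above 0 and 5 below, none beyond 2-fold, at a median of 0.21. Bub1, a spindle checkpoint kinase, stood at 98.5 TPM in cEpiSC, against 64.3 TPM in mESC (log2 ratio 0.66, 0.60 to 0.73), and Cenpf, a kinetochore protein gene with partly shared reads, at 13.7 TPM in cEpiSC, against 21.2 TPM in mESC (log2 ratio -0.57, -0.66 to -0.48). The medians of these lists were not tested against that of the 43 replication genes.

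**Figure D5:**
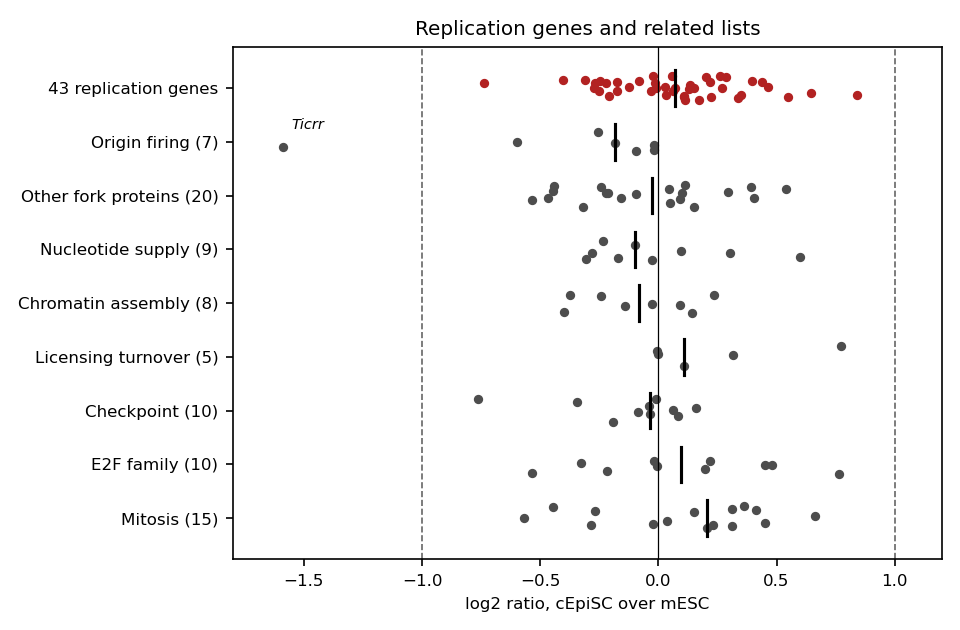
Log2 ratio of cEpiSC over mESC for the 43 replication genes and for 8 related lists, with the number of genes of each in parentheses. Each point is 1 gene, the short vertical line is the median and dashed lines mark 2-fold. Ticrr is the only point beyond 2-fold.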

How the data were processed

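The labels describe column-purified RNA, oligo(dT) capture, random-primed cDNA with dUTP in the second strand, and paired reads from a BGI instrument. HISAT2, Bowtie2, RSEM 1.3.1 and DESeq2 1.34.0 with build GRCm38.p6 are named in the submitters' processing notes, without the step each served. Per the file headers, the authors deposited read counts, TPM and FPKM for each gene. The deposited counts are estimated counts, since 11.9% of genes in cEpiSC and 11.3% in mESC lie more than 0.005 from a whole number. The deposited TPM and FPKM are scaled by the authors for transcript length and library size. No column of another sample was present (0).

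Estimated counts were rounded and scaled with TMM in edgeR 4.0.16 (R 4.3.3), over the whole table. Log2 ratios used a prior count of 2, and the 95% intervals, exact (Clopper-Pearson) on the split of a gene's counts between libraries, used none. Their median half-width was 0.082 for the 43 genes (0.031 to 0.20). They cover counting error only, since each state has 1 library. No molecular identifiers separate PCR copies, so the intervals can be too narrow even for counting error. Genes reaching 1 CPM in either library were compared by size alone, since the design leaves no residual degrees of freedom. The code was run on simulated Poisson counts with 200 changed genes. The intervals assume such counts, so this checks the code and not how well the intervals suit these libraries. Gene positions and promoter windows came from RefSeq tables of GRCm38.p6, joined by Entrez identifier, and exon overlaps from GENCODE vM21. Ratios were recomputed with size factors of DESeq2 1.42.0, library totals, other filters (none, 5 CPM), prior counts of 0.5 and 5, and TPM and FPKM with a pseudocount of 1. Of each related list, up to 4 compared genes with the largest ratio beyond 2-fold were named, or the 2 with the largest ratio where none was. Cdc7, Dbf4, Donson, Pole3, Pole4 and Pold4 were named after their values were seen. Members and lists were chosen with earlier results of these data known.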

Additional observations from a re-analysis of the deposited data

How the results depend on the processing

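With 1 library per state, settings were compared by value alone. No replication gene passed 2-fold under any of the 9 other settings. The count 1.5-fold lower stayed at 1 (Mcm3). The count 1.5-fold higher was 2 or 3, the third being Orc2 with library totals or FPKM, but 1 after centring on transcript length, an alternative added after seeing the data. The median ratio ranged from 0.0325 (centred on length) to 0.16 (FPKM), and members above 0 from 23 to 30. The share of all genes above 0 ranged from 45.5% (filter at 5 CPM) to 53.8% (library totals). Orc5, Cdc6, Gins3 and Pold1 turned positive with library totals or FPKM, and Gmnn and Mcm6 negative with TPM. Spreads of level within a complex must be alike in TPM and FPKM, which differ by a constant in each library, so that comparison tests nothing. Counts for related lists did not move with scaling. No paired analysis was possible because each state has 1 library, and no library could be left out. At this depth the counting interval, with TMM scaling, included 0 for 10 of the 43 genes, abundant ones such as Mcm6 among them. The ratio left that interval for 18 of the 43 genes with library totals and for 19 with FPKM. It did so for 9 with TPM and for 17 when centred on length, while all 43 stayed inside with DESeq2 size factors. Intervals were not recomputed under those settings, so how many would include 0 there is not known.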

Other observations

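Genes that rebuild chromatin behind the fork and genes of the replication checkpoint were measured too. Of 8 chromatin assembly genes none was 2-fold apart, 3 lay above 0 and 5 below, and the median log2 ratio was -0.083. Ssrp1, a subunit of the histone chaperone FACT, stood at 178 TPM in cEpiSC and 252 TPM in mESC, a ratio of -0.40 (-0.45 to -0.35). Chaf1a, the large subunit of the chromatin assembly factor CAF-1, stood at 44.1 TPM in cEpiSC and 59.1 TPM in mESC, a ratio of -0.37 (-0.47 to -0.28).

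Of 10 checkpoint genes none was 2-fold apart, 3 lay above 0 and 7 below, and the median was -0.038. Rad9a, part of the checkpoint clamp and with partly shared reads, stood at 41.8 TPM in cEpiSC and 73.3 TPM in mESC, a ratio of -0.76 (-0.88 to -0.65). Etaa1, an activator of the kinase ATR, stood at 15.8 TPM in cEpiSC and 21.1 TPM in mESC, a ratio of -0.35 (-0.50 to -0.19).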
